A study of Mus musculus with 22 samples.

Results

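Metallothioneins and genes of iron handling were followed in the mouse spinal cord during aging and in a model of amyotrophic lateral sclerosis (ALS). The set held 10 of the 21995 genes in the tables and was given as a list of names: the metallothioneins Mt1, Mt2 and Mt3, the ferritin subunits Fth1 and Ftl1, the transferrin receptor Tfrc, transferrin (Trf), the iron exporter ferroportin (Slc40a1), the phagosomal metal transporter Slc11a1 and ceruloplasmin (Cp). RNA was sequenced from whole spinal cords of 22 C57BL/6 mice, 1 library per mouse. To examine aging, 8 young wild-type males of 3 to 4 months were compared with 8 old wild-type males of 18 to 24 months, and these libraries were made with the Roche KAPA HyperPrep kit. To examine ALS, 3 symptomatic SOD1-G93A mice were compared with 3 control mice of wild type. Each of these groups held 2 females and 1 male, and their libraries were made with the Illumina TruSeq kit. The labels give both ALS groups an age of 5 to 6 months. SOD1-G93A mice carry a high number of copies of a mutant human SOD1 transgene, which is active in many cell types and not in motor neurons alone. The sex of each ALS mouse is given for the group and not for the library, so sex was not a covariate. Kit and experiment coincide, and levels were not compared across the experiments.

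The young libraries held from 5078092 to 9358055 counts and the old libraries from 5664869 to 9145600. The control libraries held from 10693060 to 13219797 counts and the SOD1-G93A libraries from 9675610 to 11872431. Counts were expressed as CPM, which corrects for library size, and 3 counts, taken as the smallest amount this depth can show, corresponded to at most 0.591 CPM in any library, a limit that covers counting error only. Libraries are named by their group and their order in the table, which is only a name. The old 6 library stood apart from the other old libraries. On the first principal component of log2 CPM it lay at 1.64, where the other old libraries lay between 16.9 and 26.2, and its 10 most abundant genes took 15.1% of its counts. SOD1-G93A 2 lay at 22.8 on the first component of the ALS experiment, where the other SOD1-G93A libraries lay at 54.1 and 62.8. Several results are given with and without them.

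Metallothioneins are small, cysteine-rich proteins that bind zinc and copper. Mt1 and Mt2 are made mainly by astrocytes in the central nervous system and are induced by metals, glucocorticoids and inflammatory signals, and Mt3 is the form enriched in the nervous system. Iron enters cells through transferrin and its receptor, is stored in ferritin shells of heavy (Fth1) and light (Ftl1) subunits, and leaves through ferroportin, helped by the ferroxidase ceruloplasmin. Iron regulatory proteins bind a stem-loop, the iron-responsive element, in mRNAs of this pathway. In iron-poor cells they block translation of ferritin and ferroportin mRNAs and protect Tfrc mRNA from decay, so that part of this regulation leaves the amount of ferritin mRNA unchanged.

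In old mice, 8 of the 10 genes were higher than in young mice and none was lower at an adjusted p under 0.05 (edgeR quasi-likelihood test, Benjamini-Hochberg adjustment over 13647 genes). Slc11a1 rose 4.73-fold, Ftl1 1.98-fold, Cp 1.63-fold, Mt2 1.57-fold and Mt1 1.54-fold, and Fth1, Mt3 and Trf rose by smaller amounts. Tfrc and Slc40a1 did not pass the test. Of all genes tested, 13.5% were higher and 12.9% were lower in old mice. Because the members were chosen with earlier results of these data known, such shares, here and below, are descriptive and do not test the set. Slc11a1 was the only member with a log2 fold change beyond 1 as well, a limit that 2.18% of all genes passed upward. Ftl1, at 0.99, crossed that limit when the library young 5 (1.002), young 7 (1.03) or old 6 (1.07) was left out, so the count became 2. In 5 of the 10 members every old library lay above every young library, as it did for 3.66% of all genes tested.

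In SOD1-G93A mice, 7 of the 10 genes were higher than in control mice and none was lower at the same threshold, among 14386 genes tested. Slc11a1 rose 13.6-fold, Mt2 6.14-fold, Mt1 5.94-fold, Ftl1 4.14-fold and Cp 2.37-fold, and these 5 had a log2 fold change beyond 1. Mt3 and Trf rose by less, and Fth1, Tfrc and Slc40a1 did not pass the test. Of all genes tested, 18.4% were higher, 15.5% were lower, and 8.5% were higher with a log2 fold change over 1. All 3 SOD1-G93A libraries lay above all 3 control libraries in 7 of the 10 members, against 25.7% of all genes tested. Without SOD1-G93A 2, 9 of the 10 members passed the test, 8 higher and 1 lower, since Fth1 then passed as higher and Tfrc as lower, and 6 had a log2 fold change beyond 1. More genes passed in that fit altogether, with 23.8% of all genes higher, 21.7% lower and 10.4% higher with a log2 fold change over 1. In each of the other 5 leave-outs fewer genes passed than with all libraries, down to 11.3% higher and 4.92% lower without SOD1-G93A 3. All 10 members passed the filter on low counts in both comparisons.

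**Figure D1:**
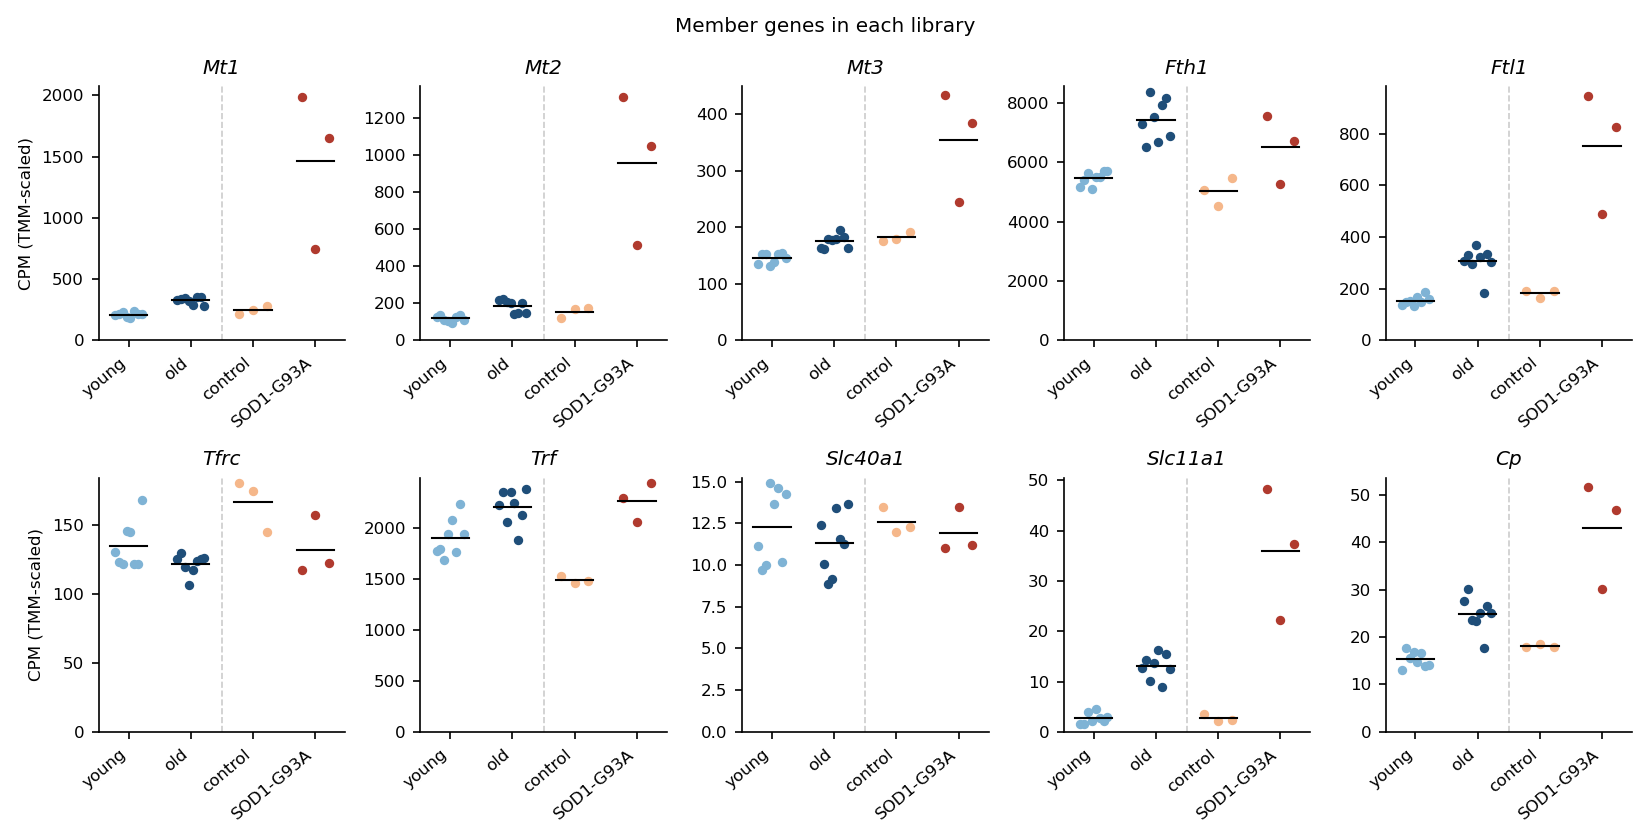
Level of each of the 10 genes in each library, in CPM on a linear axis from 0, for young (n = 8), old (n = 8), control (n = 3) and SOD1-G93A (n = 3) mice. Points are libraries, black bars are group means, and the dashed line parts the experiments, which were scaled separately. Slc11a1 lies at 8.95 CPM or more in all old libraries and at 4.63 CPM or less in all young libraries, while the groups overlap for Slc40a1 and Tfrc.

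Per transcript length the members spanned a wide range of levels. In young mice the mean FPKM, which corrects for transcript length and depth, was 6164 ± 285 (SD, n = 8) for Fth1 and 1321 ± 77.2 for Trf. Mt1 followed with 381.5 ± 28.1, Mt3 with 276 ± 15, Mt2 with 244.5 ± 29.4 and Ftl1 with 158 ± 17.8 FPKM. Mt3 and Mt2 were neighbours whose levels differed by about their spread. Tfrc stood at 29.4 ± 4.05, Cp at 6.17 ± 1.54, Slc40a1 at 3.54 ± 0.586 and Slc11a1 at 1.88 ± 1.15 FPKM. The transcript of the heavy ferritin subunit was thus the most abundant of the 10 per length, and it held that place in all 4 groups. Ftl1 shares most of its sequence with transcripts of other genes, as given below. Whether this lowered its FPKM and its place in these orders was not tested. In old mice Mt2 (379 ± 79.6), Mt3 (331 ± 17.2) and Ftl1 (314 ± 67.1) changed order between libraries, as did Slc11a1 (7.07 ± 1.92) and Cp (8.73 ± 1.99), and both means lay above that of Slc40a1 (3.47 ± 0.92). In control mice the order was Fth1 (5614 ± 525), Trf (954 ± 51.4), Mt1 (443 ± 62.2), Mt3 (346 ± 16), Mt2 (308 ± 57.5), Ftl1 (184 ± 16.4), Tfrc (38.4 ± 4.66), Cp (5.87 ± 0.737), Slc40a1 (3.47 ± 0.219) and Slc11a1 (1.71 ± 0.305). Mt3 exceeded Mt2 in all 3 control libraries. In SOD1-G93A mice Mt1 (2722 ± 1170), Mt2 (1943 ± 803) and Trf (1763 ± 241) followed Fth1 (7524 ± 1250). Mt1 exceeded Mt2 in all 3 libraries, while the place of Trf beside them differed between libraries. Ftl1 (794 ± 236) exceeded Mt3 (698 ± 187) in all 3 libraries. Below them, Tfrc stood at 32.4 ± 4.81 and Slc11a1 at 19.4 ± 6.00 FPKM, followed by Cp at 12.6 ± 4.59 and Slc40a1 at 3.41 ± 0.429.

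The metallothionein genes lie next to each other on the forward strand of chromosome 8 (GRCm38, GENCODE M21), with Mt3 (ENSMUSG00000031760) at chr8:94152607-94154146, Mt2 (ENSMUSG00000031762) at chr8:94172664-94173568 and Mt1 (ENSMUSG00000031765) at chr8:94179082-94180327. An antisense gene, Gm45774, overlaps Mt2. The annotated transcripts of Mt1 and Mt2 shared no stretch longer than 16 bases, and no run of 50 bases in either occurred in a transcript of another gene. Because the group means of all 3 genes rose in both comparisons, their promoters are shown, from 250 bases before to 50 bases after the start as given by RefSeq (GRCm38.p6), 5′ to 3′. Capitals mark the core of the metal response element, to which the zinc-sensing transcription factor Mtf1 binds, searched as TGCACNC or TGCGCNC on both strands, where N is any base.
Mt1, chr8:94178839-94179138, forward strand: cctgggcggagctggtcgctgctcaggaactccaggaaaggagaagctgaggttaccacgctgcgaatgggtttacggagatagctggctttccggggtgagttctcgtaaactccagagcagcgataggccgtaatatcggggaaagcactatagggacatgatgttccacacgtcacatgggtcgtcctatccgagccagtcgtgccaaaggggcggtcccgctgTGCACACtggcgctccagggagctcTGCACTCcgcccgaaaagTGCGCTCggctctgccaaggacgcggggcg
Mt2, chr8:94172368-94172667, forward strand: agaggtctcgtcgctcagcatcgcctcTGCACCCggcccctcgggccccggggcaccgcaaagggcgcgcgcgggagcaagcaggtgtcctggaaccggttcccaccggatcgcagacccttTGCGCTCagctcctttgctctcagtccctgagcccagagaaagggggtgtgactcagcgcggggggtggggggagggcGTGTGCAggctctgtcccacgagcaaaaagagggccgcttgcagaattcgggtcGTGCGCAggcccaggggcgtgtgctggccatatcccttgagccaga
Mt3, chr8:94152357-94152656, forward strand: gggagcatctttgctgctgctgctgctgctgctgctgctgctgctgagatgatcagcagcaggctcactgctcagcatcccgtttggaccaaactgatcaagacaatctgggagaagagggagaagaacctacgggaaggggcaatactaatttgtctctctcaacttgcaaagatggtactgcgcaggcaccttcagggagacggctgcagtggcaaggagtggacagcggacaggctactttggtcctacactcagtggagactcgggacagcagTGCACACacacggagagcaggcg
The Mt1 promoter held 3 matches, all on the forward strand, and the first began 23 bases before the RefSeq start. The Mt2 promoter held 4 matches, 2 on each strand, and the Mt3 promoter held 1. No matches overlapped in these promoters. Of the 32851 promoters in the table, 25.7% held at least 1 match, 1.97% held 3 or more and 0.517% held 4 or more. RefSeq promoters were matched for 8 of the 10 members. Besides the metallothioneins only Tfrc held matches, 2 on opposite strands that overlap each other, in 1 of its promoters. A match describes these letters and not a bound site. Positions and counts hold for these windows only and depend on the start used. The Mt2 window ends at 94172667, close to the GENCODE start of 94172664, and elements outside a window are not counted.

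Mt1 ranged from 183.9 to 241.1 CPM in young mice, with a median of 213.2, and from 278.5 to 356.5 in old mice, with a median of 332. The age groups did not overlap. The log2 fold change was 0.63 (SE 0.06, adjusted p = 3.17e-08). Mt2 ranged from 94.4 to 138.5 CPM in young mice, with a median of 118, and from 142.8 to 223.6 in old mice, with a median of 202.2. These groups did not overlap either, although old 5, old 6 and old 8, at 142.8, 146.8 and 145.5 CPM, lay well below the other old libraries, none of which was under 202. The log2 fold change of Mt2 was 0.65 (SE 0.10, adjusted p = 2.87e-05), and without old 6 it was 0.69. Mt3 ranged from 132.5 to 154.2 CPM in young mice, with a median of 148.8, and from 160.9 to 194.5 in old mice, with a median of 178.2. It also separated the groups, with the smaller log2 fold change of 0.27 (SE 0.05, adjusted p = 1.76e-04).

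In the ALS experiment the inducible metallothioneins showed larger differences. Mt1 stood at 213.2, 245.3 and 280.5 CPM in control mice and at 749.1, 1653 and 1986 CPM in SOD1-G93A mice, a log2 fold change of 2.57 (SE 0.31, adjusted p = 7.21e-04). Mt2 stood at 123.3, 167.1 and 177.1 CPM in control mice and at 514.6, 1046 and 1311 CPM in SOD1-G93A mice, a log2 fold change of 2.62 (SE 0.31, adjusted p = 6.42e-04). For both genes the lowest SOD1-G93A value, that of SOD1-G93A 2, was still above all control values. Without that library the log2 fold changes were 2.89 and 2.92. Mt3 stood at 175.2, 179.9 and 191.3 CPM in control mice and at 244.5, 385.1 and 434.9 CPM in SOD1-G93A mice, a log2 fold change of 0.96 (SE 0.19, adjusted p = 0.00579), which became 1.17 without SOD1-G93A 2. Mt4, the metallothionein of stratified epithelia, had 0 counts in all 22 libraries.

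The ratio of Mt2 to Mt1 within a library, which does not depend on scaling between libraries, stayed near the same value. It averaged 0.638 in young and 0.632 in old mice as a ratio of FPKM (geometric means), a log2 difference of -0.01 (exact two-sided permutation test, p = 0.899, adjusted p = 0.899 over 3 ratios and 2 comparisons). In the ALS experiment it averaged 0.691 in control and 0.72 in SOD1-G93A mice, a log2 difference of 0.06 (exact permutation p = 0.6, adjusted p = 0.72, where 3 against 3 cannot go below 0.1). The sign of both small differences depended on the setting. It turned to 0.05 in old mice without old 6, the library with the lowest ratio at 0.472, and to 0.0082 as a ratio of counts, and in SOD1-G93A mice it turned to -0.0048 without control 1.

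Ferritin subunits are encoded on different chromosomes, Fth1 (ENSMUSG00000024661) at chr19:9980598-9985098 on the forward strand and Ftl1 (ENSMUSG00000050708) at chr7:45457944-45459884 on the reverse strand. Their mRNAs share the iron-responsive element, whose sequence is shown because it links ferritin to Tfrc and ferroportin. It was searched in the untranslated regions of protein-coding GENCODE M21 transcripts (GRCm38) as a C, 5 bases, the loop CAGTGN and 5 bases that can pair with the first 5, with T in place of U. Each line gives the match with 6 bases on either side, 5′ to 3′ along the mRNA, and capitals mark the loop.
Fth1, 5′ untranslated region, chr19:9982732-9982760, forward strand: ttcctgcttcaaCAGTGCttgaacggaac
Ftl1, 5′ untranslated region, chr7:45459779-45459807, reverse strand: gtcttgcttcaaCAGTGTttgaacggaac
Slc40a1, 5′ untranslated region, chr1:45925465-45925493, reverse strand: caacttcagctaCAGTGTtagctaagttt
Tfrc, 3′ untranslated region, chr16:32631219-32631247, forward strand: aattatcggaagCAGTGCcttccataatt
Tfrc, 3′ untranslated region, chr16:32631598-32631626, forward strand: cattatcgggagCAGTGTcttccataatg
Tfrc, 3′ untranslated region, chr16:32631663-32631691, forward strand: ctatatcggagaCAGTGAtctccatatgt
Tfrc, 3′ untranslated region, chr16:32631710-32631738, forward strand: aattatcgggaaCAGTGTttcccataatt
Among the 10 members, Fth1, Ftl1 and Slc40a1 each held 1 such match in the 5′ untranslated region and Tfrc held 4 in the 3′ untranslated region. Of all genes searched, 0.151% held a match in a 5′ untranslated region (31 of 20597) and 0.614% held one in a 3′ untranslated region (129 of 20995). The other 6 members held none in either region. The sequenced RNA shows the amount of these transcripts and not their translation.

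Ftl1 ranged from 132 to 187.6 CPM in young mice, with a median of 150.6, and from 183.7 to 369.9 in old mice, with a median of 315.6. Old 6, at 183.7 CPM, was the only old library within the young range, and the next lowest old library stood at 294.5. The log2 fold change was 0.99 (SE 0.10, adjusted p = 5.93e-08), and 1.07 without old 6 (adjusted p = 2.98e-12). Fth1 ranged from 5104 to 5712 CPM in young mice, with a median of 5508, and from 6512 to 8369 in old mice, with a median of 7390. Its groups did not overlap, and its log2 fold change was 0.44 (SE 0.05, adjusted p = 6.15e-07).

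Ftl1 stood at 163.8, 190.6 and 192.7 CPM in control mice and at 490.3, 828.1 and 944.5 CPM in SOD1-G93A mice, a log2 fold change of 2.05 (SE 0.22, adjusted p = 3.84e-04). The groups did not overlap. Fth1 stood at 4537, 5063 and 5475 CPM in control mice and at 5262, 6695 and 7550 CPM in SOD1-G93A mice. SOD1-G93A 2 lay within the control range, and the log2 fold change of 0.37 (SE 0.15, adjusted p = 0.0819) did not pass the test. Without that library it was 0.51 (adjusted p = 0.00125). It did not pass in the other 5 leave-outs, where it went down to 0.26 without SOD1-G93A 1 and its adjusted p up to 0.274 without control 2. With all 6 libraries it passed with DESeq2 (adjusted p = 0.0387) and in one edgeR fit of all 22 libraries (adjusted p = 0.0108). Over these and the other alternatives apart from leave-outs, its adjusted p ranged from 0.0108 to 0.146. Ftl1 has processed copies in the genome, and 78.9% of the runs of 50 bases in its transcript occur in transcripts of other genes. One copy, Ftl1-ps1, is in the table, with from 0 to 213 counts per library. Adding its counts to those of Ftl1, an alternative chosen after the data were seen, gave log2 fold changes of 0.99 in old and 2.05 in SOD1-G93A mice.

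The balance of the ferritin subunit transcripts shifted toward that of the light subunit in old mice. The ratio of Fth1 to Ftl1 in FPKM averaged 39.1 in young mice, with a range of 34.0 to 41.7, and 27.2 in old mice, with a range of 21.3 to 47.7 (geometric means). The log2 ratio differed by -0.53 (exact two-sided permutation test over 12870 arrangements, p = 0.00326, adjusted p = 0.00979). Old 6 held the highest ratio of all 16 libraries, at 47.7, and without it the log2 difference was -0.64 (exact permutation test, adjusted p = 9.32e-04). In control mice the ratio stood at 29.3, 30.7 and 31.5, and in SOD1-G93A mice at 8.72, 8.95 and 11.7. These groups did not overlap, and the log2 difference of -1.65 reached the smallest exact permutation p that 3 against 3 allows, 0.1 (adjusted p = 0.2).

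**Figure D2:**
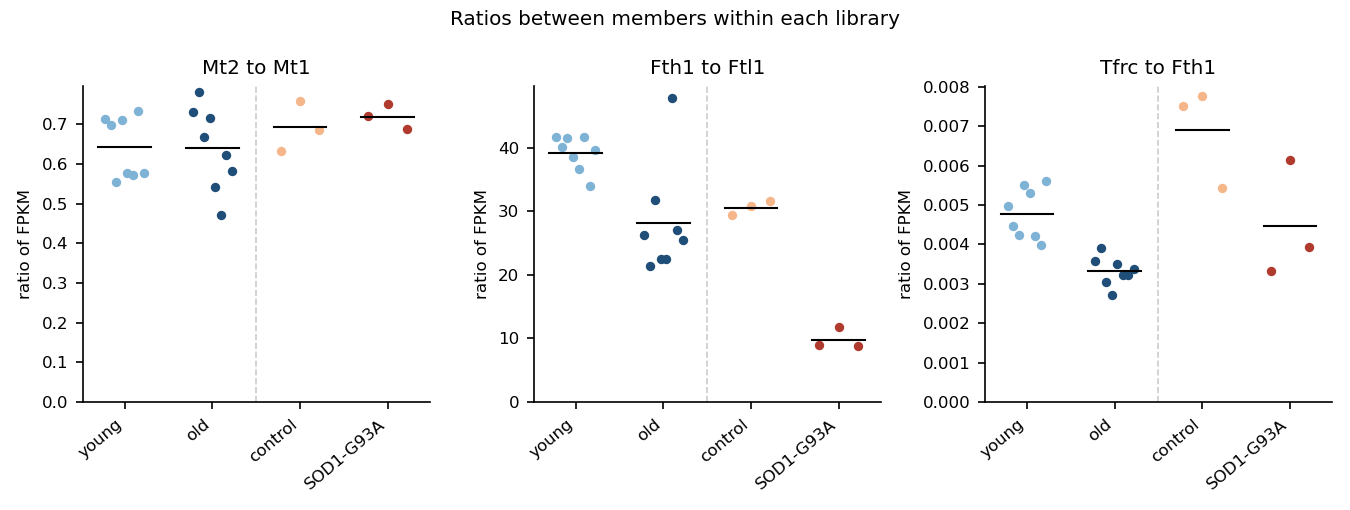
Ratio of FPKM within each library for Mt2 to Mt1, Fth1 to Ftl1 and Tfrc to Fth1, on linear axes from 0, with points for libraries (n = 8, 8, 3 and 3) and black bars for arithmetic group means. The ratio of Fth1 to Ftl1 lies at 11.7 or less in SOD1-G93A mice and at 29.3 or more in control mice, and 1 old library, old 6, lies above all young libraries.

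Trf (ENSMUSG00000032554, chr9:103204001-103230444, reverse strand), the plasma iron carrier that oligodendrocytes make in the central nervous system, ranged from 1680 to 2232 CPM in young mice, with a median of 1864, and from 1885 to 2379 in old mice, with a median of 2236. These ranges overlapped, and the log2 fold change was 0.21 (SE 0.06, adjusted p = 0.00815). In FPKM they did not, since the highest young library stood at 1485 and the lowest old library at 1503. In control mice Trf stood at 1462, 1483 and 1532 CPM and in SOD1-G93A mice at 2054, 2296 and 2444, with no overlap and a log2 fold change of 0.60 (SE 0.10, adjusted p = 0.0033). A gene annotated on the same strand, Gm20425, shares 79.8% of the 50-base runs of Trf and held from 47 to 381 counts per library. With its counts added, an alternative chosen after the data were seen, the log2 fold changes of Trf were 0.22 and 0.59. With limma on log2(FPKM + 1) they were larger, 0.36 and 0.88.

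Tfrc (ENSMUSG00000022797, chr16:32608920-32632794, forward strand), which takes up transferrin-bound iron, ranged from 121.3 to 168.1 CPM in young mice, with a median of 127, and from 106.4 to 129.4 in old mice, with a median of 124.5. The ranges overlapped and the log2 fold change was -0.15 (SE 0.06, adjusted p = 0.0887). Tfrc stood at 144.9, 174.4 and 180.6 CPM in control mice and at 117, 122.4 and 157 CPM in SOD1-G93A mice, a log2 fold change of -0.34 (SE 0.13, adjusted p = 0.0839). The highest of these SOD1-G93A values was that of SOD1-G93A 2. Without it the log2 fold change was -0.47 (adjusted p = 0.00376). It did not pass in the other 5 leave-outs, where it reached -0.25 without SOD1-G93A 1 and its adjusted p reached 0.249 without SOD1-G93A 3. In one edgeR fit of all 22 libraries it was -0.36 (adjusted p = 0.012), within a range of adjusted p from 0.012 to 0.203 over the alternatives apart from leave-outs.

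The ratio of Tfrc to heavy-chain ferritin within each library was lower in old mice. Much of this difference is the rise of Fth1 given above, whose mean FPKM went from 6164 in young to 8323 in old mice. Tfrc alone, with mean FPKM of 29.4 and 27.5, did not pass the test. The ratio of Tfrc to Fth1 in FPKM ranged from 0.00397 to 0.00561 in young and from 0.00271 to 0.00391 in old mice, so that every old library lay below every young library. The log2 difference was -0.52 (exact two-sided permutation test, p = 1.55e-04, the smallest that 8 against 8 can give, adjusted p = 9.32e-04). The ratio stood at 0.00544, 0.00751 and 0.00777 in control and at 0.00333, 0.00394 and 0.00614 in SOD1-G93A mice, which overlapped (log2 difference -0.66, exact permutation p = 0.2, adjusted p = 0.3). The overlap was that of SOD1-G93A 2, at 0.00614, with control 3, at 0.00544. Over the leave-outs the log2 difference ranged from -0.47 without SOD1-G93A 1 to -0.91 without SOD1-G93A 2. With so few libraries the exact permutation test could not pass in any of these leave-outs.

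Slc40a1 (ENSMUSG00000025993, chr1:45908068-45926523, reverse strand), the iron exporter, ranged from 9.68 to 14.9 CPM in young and from 8.88 to 13.6 CPM in old mice. Control libraries stood at 11.95, 12.29 and 13.48 CPM and SOD1-G93A libraries at 11.02, 11.19 and 13.5 CPM, with overlap in both experiments. Neither comparison passed the test. The log2 fold change was -0.13 with age (95% confidence interval -0.37 to 0.12, adjusted p = 0.455) and -0.08 in SOD1-G93A mice (95% confidence interval -0.41 to 0.25, adjusted p = 0.697). Over the leave-outs it ranged from -0.1776 to -0.0863 with age and from -0.1746 to -0.0221 in SOD1-G93A mice, and passed in none.

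Slc11a1 (ENSMUSG00000026177, chr1:74375195-74386062, forward strand) encodes a transporter that moves iron and manganese out of the phagosomes of macrophages and related cells. It had few counts in young mice, from 11 to 41 per library, which is above the floor of 3 counts in each. Its level ranged from 1.48 to 4.63 CPM in young mice, with a median of 2.502, and from 8.95 to 16.3 CPM in old mice, with a median of 13.2. The age groups did not overlap, and the log2 fold change was 2.24 (SE 0.19, adjusted p = 4.61e-09), and 2.30 without old 6. Slc11a1 stood at 2.19, 2.31 and 3.51 CPM in control mice and at 22.3, 37.4 and 48.2 CPM in SOD1-G93A mice, a log2 fold change of 3.77 (SE 0.32, adjusted p = 1.73e-04). The lowest of these SOD1-G93A values was again that of SOD1-G93A 2, without which the log2 fold change was 4.02. On the authors' log2(FPKM + 1) scale, which understates the change of low genes, the differences were 1.53 and 2.87.

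Cp (ENSMUSG00000003617, chr3:19957054-20009145, forward strand) encodes a copper-carrying ferroxidase that astrocytes hold at their surface, where it helps ferroportin release iron. It ranged from 13.1 to 17.8 CPM in young mice, with a median of 15.1, and from 17.7 to 30.2 CPM in old mice, with a median of 25.0. Only old 6, at 17.74 CPM, reached into the young range. The log2 fold change was 0.70 (SE 0.09, adjusted p = 3.91e-06), and 0.76 without old 6. With limma on log2(FPKM + 1) the difference was 0.44 and did not pass the test (adjusted p = 0.0547), within a range of adjusted p from 2.49e-11 to 0.0547 over the alternatives apart from leave-outs. Cp stood at 17.8, 18.0 and 18.6 CPM in control mice and at 30.2, 46.8 and 51.7 CPM in SOD1-G93A mice, a log2 fold change of 1.24 (SE 0.18, adjusted p = 0.00182). The gene Hps3 overlaps Cp on the other strand, and whether counting used the strand is not given in the sources used here.

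**Figure D3:**
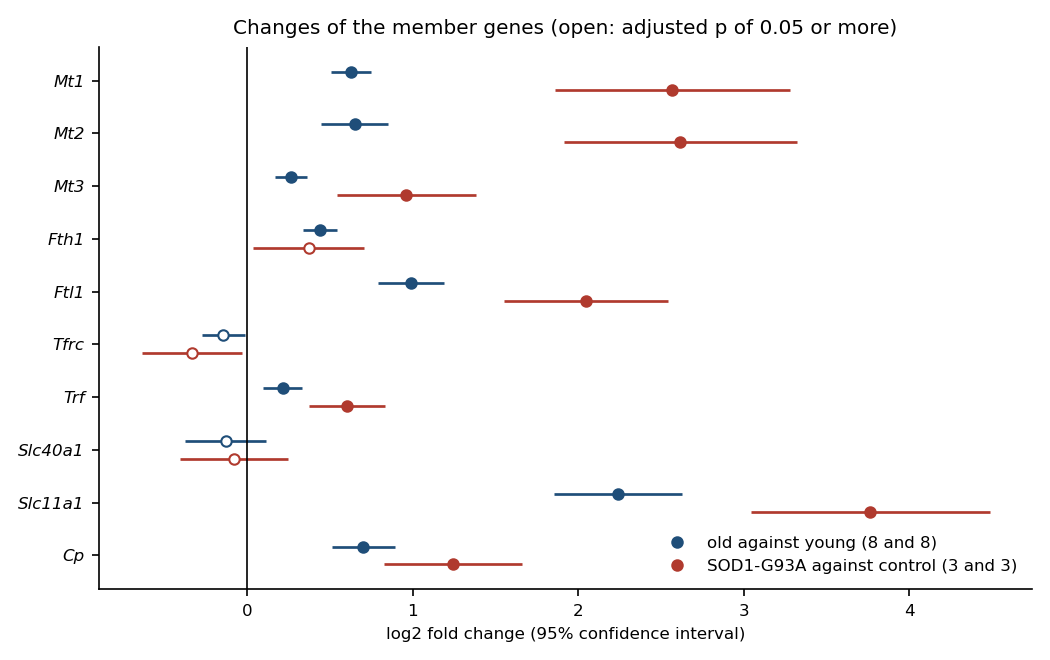
Log2 fold change of each member with its 95% confidence interval for old against young (8 and 8 mice) and SOD1-G93A against control (3 and 3 mice), from edgeR. Filled points have an adjusted p under 0.05 and open points do not. The largest values are those of Slc11a1, 2.24 and 3.77, and the intervals of Slc40a1 include 0 in both comparisons.

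Whether the change in SOD1-G93A mice differed from the change with age was tested as an interaction in one edgeR fit of all 4 groups, in which kit and experiment cannot be told apart from the comparison. Of the 10 members, 7 changed more upward in the ALS experiment and none more downward, where 11.6% and 14.2% of 14502 genes did. The difference in log2 fold change was 1.94 for Mt2 (adjusted p = 1.81e-05), 1.91 for Mt1 (adjusted p = 5.19e-06), 1.495 for Slc11a1 (adjusted p = 0.00424) and 1.03 for Ftl1 (adjusted p = 0.00112). It was 0.67 for Mt3, 0.36 for Trf and 0.52 for Cp. Cp passed only narrowly (adjusted p = 0.0446) and was called in 1 of the 6 fits that left out an ALS library, where its adjusted p reached 0.208 without SOD1-G93A 1. Without a filter on low counts its adjusted p was 0.0664. Trf was called in 4 of those 6 fits, and not without control 2 (adjusted p = 0.0536) or SOD1-G93A 3 (adjusted p = 0.076). The change of Fth1 was not shown to differ between the experiments (difference -0.10, adjusted p = 0.622), nor were those of Tfrc (-0.22, adjusted p = 0.258) and Slc40a1 (0.02, adjusted p = 0.955). Tfrc passed in 1 of the 6 leave-outs, without SOD1-G93A 2 (-0.37, adjusted p = 0.0312), and its difference was -0.13 without SOD1-G93A 1 (adjusted p = 0.6065).

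Markers of cell types moved in the same libraries. More cells of a type and more RNA per cell cannot be told apart in whole tissue. Of 14 microglia and macrophage markers, 13 were tested with age and 12 were higher in old mice, and 12 of 14 were higher in SOD1-G93A mice. Their summed level ranged from 355.1 to 399.7 CPM in young mice, with a median of 373.1, and from 595.8 to 1029 CPM in old mice, with a median of 939. The lowest old sum was that of old 6, the library with the lowest Ftl1, Cp, Slc11a1 and Trf among old mice. Old 6 also had the highest Mt1 (356.5 CPM) and Mt3 (194.5 CPM) of the old libraries. It was at neither extreme of them for Mt2, Fth1, Tfrc and Slc40a1. The sum stood at 372.3, 396.9 and 444 CPM in control mice and at 1542, 2288 and 2839 CPM in SOD1-G93A mice, with the lowest in SOD1-G93A 2. No gene of the list was at 0 in every library.

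Astrocyte markers, the cell type in which Mt1, Mt2 and Cp are best known, moved less with age. Of 11 markers, 5 were higher and 1 was lower in old mice, with a summed level from 8425 to 9191 CPM in young and from 9340 to 10280 CPM in old mice. In SOD1-G93A mice 6 of 11 were higher, and the sum stood at 13500, 18040 and 20460 CPM against 7881, 8088 and 8507 CPM in control mice. Gfap, an intermediate filament that had the highest mean CPM of the list over all libraries, rose by a log2 fold change of 0.69 with age and 2.40 in SOD1-G93A mice. With age its mean went from 1843 to 2977 CPM and that of the sum from 8811 to 9918 CPM, so the means of the other markers together did not rise. Singly, Sox9 (log2 fold change 0.35), Aldh1l1 (0.22), S100b (0.20) and Slc1a3 (0.17) were called higher with age and Gja1 (-0.23) lower. In SOD1-G93A mice the mean of Gfap went from 1758 to 9258 CPM and that of the sum from 8159 to 17330 CPM. The other markers together thus rose there too. Besides Gfap, the markers called higher there were Aqp4 (log2 fold change 1.40), Sox9 (1.301), Aldh1l1 (1.09), Slc1a3 (0.62) and Gja1 (0.54). None was called lower, and 5 were not called, Slc1a2 among them. The glutamate transporter Slc1a2, chosen after its values were seen, had more CPM than Gfap in young (2866 CPM) and control mice (2494 against 1758 CPM). CPM do not correct for transcript length, so the orders of markers by CPM are not orders per length. The log2 fold change of Slc1a2 was -0.08 with age (adjusted p = 0.332) and 0.07 in SOD1-G93A mice (adjusted p = 0.679). Oligodendrocyte markers, which include the cells best known for Trf, did not rise as a list. With age 1 of 12 was higher and 5 were lower, and in SOD1-G93A mice 1 was higher and 2 were lower. Mbp, a myelin protein and the most abundant of them, rose with age by a log2 fold change of 0.16 (adjusted p = 0.0383) and stood at -0.04 in SOD1-G93A mice (adjusted p = 0.838). Of 12 neuron markers, 1 was higher and 4 were lower in old mice, and 9 were lower in SOD1-G93A mice, where the sum stood at 3999, 4543 and 6591 CPM against 9776 to 10240 CPM in control mice. Snap25, a synaptic protein and the most abundant of these, had a log2 fold change of -0.13 with age (adjusted p = 0.226) and -0.85 in SOD1-G93A mice (adjusted p = 0.0132).

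Blood was also considered, since erythrocytes carry iron and neutrophils express Slc11a1. Of 9 erythrocyte markers 6 were tested. With age 1 was higher, and in SOD1-G93A mice none was called by edgeR. Their most abundant gene, Hba-a2, had a log2 fold change of 0.32 with age (adjusted p = 0.198) and 0.02 in SOD1-G93A mice (adjusted p = 0.922). None of 7 neutrophil markers had enough counts to be tested. Their summed level was at most 2.99 CPM in any library, and Ly6g was at 0 in all of them. The part of microglia, astrocytes and other cells in the changes of the members was not tested.

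**Figure D4:**
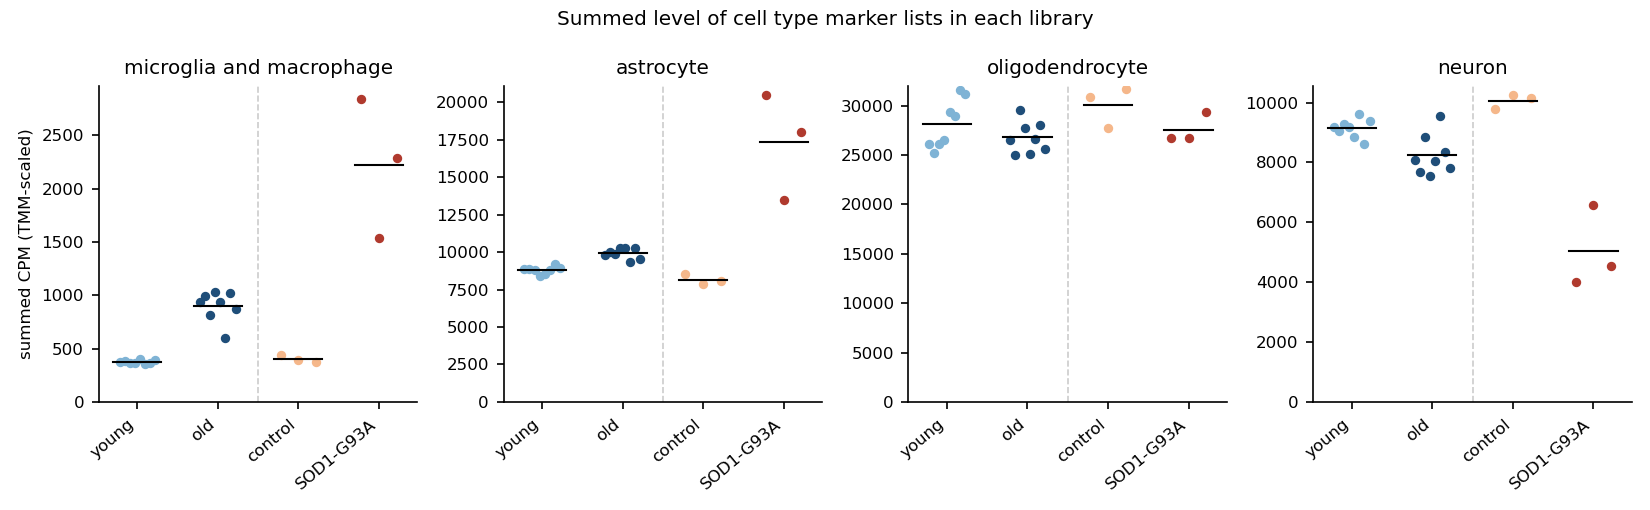
Summed CPM of 4 marker lists in each library, on linear axes from 0, with black bars for group means (n = 8, 8, 3 and 3). Microglia and macrophage markers sum to at least 595.8 CPM in old and at most 399.7 CPM in young mice, and the SOD1-G93A library with the lowest microglial and astrocyte sums, SOD1-G93A 2, has the highest neuronal sum of its group.

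Of 107 genes in 7 lists that leave the members out, 92 were tested with age, of which 14 were higher and 7 were lower in old mice. These are 15.2% and 7.61%, beside the 13.5% and 12.9% of all genes tested. Their median log2 fold change was 0.049, beside -0.003 over all genes tested. In SOD1-G93A mice 94 were tested, of which 19 were higher (20.2%, beside 18.4% of all genes) and 11 were lower (11.7%, beside 15.5%), with a median of 0.016 beside 0.003. Whether these shares differ from those of all genes or of the members was not tested. The count of lower genes in SOD1-G93A mice changed with the library left out, as did the share of all genes called lower, given here in parentheses. It was 3 without control 1 (9.19%), 2 without control 2 (6.56%), 2 without control 3 (8.6%), 2 without SOD1-G93A 1 (9.44%), 1 without SOD1-G93A 3 (4.92%) and 18 without SOD1-G93A 2 (21.7%).

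Among 15 genes of iron uptake and reduction, 2 of 12 tested were higher in old mice and none was lower. In SOD1-G93A mice 7 of 14 tested were higher and 2 were lower. Slc39a14, which imports zinc and iron not bound to transferrin, rose by a log2 fold change of 0.31 (SE 0.09) with age and 1.36 (SE 0.19) in SOD1-G93A mice. Sdcbp, an adaptor protein of membrane traffic, rose by 0.21 and 0.50 on the log2 scale. The ferric reductases Cybrd1 (2.31, SE 0.25) and Steap3 (1.12, SE 0.21) were higher in SOD1-G93A mice on the log2 scale. Lcn2, Steap4 and Steap2 were chosen after their values were seen. Lcn2, a siderophore-binding protein of innate immunity, had a log2 fold change of 4.51 (SE 0.87) in SOD1-G93A mice and -0.66 (adjusted p = 0.352) with age. Steap4 had one of 3.17 (SE 0.70) in SOD1-G93A mice, and Steap2 had one of -1.004 (SE 0.23) there. In control mice Lcn2 (mean 0.50 CPM, SD 0.44) and Steap4 (0.35 CPM, SD 0.20) lay near the floor of 3 counts, 0.227 to 0.281 CPM. Neither of their log2 fold changes in SOD1-G93A mice is therefore exact. Of 8 genes of iron storage, chaperones and release, 4 were tested. With age the iron and RNA-binding chaperone Pcbp2 rose by 0.12 on the log2 scale and the ferroxidase hephaestin (Heph) fell by 0.31, and none was called by edgeR in SOD1-G93A mice.

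Of 12 genes of iron sensing and the hepcidin pathway, 8 were tested, and Bmp6 and Hfe were higher in both comparisons. Bmp6, a ligand that induces hepcidin in the liver, rose by a log2 fold change of 0.74 (SE 0.13) with age and 1.07 (SE 0.26) in SOD1-G93A mice. Hfe, a partner of the transferrin receptor, rose by 0.56 (SE 0.13) and 1.21 (SE 0.22) on the same scale. Ireb2, an iron regulatory protein that binds the stem-loop shown above, fell by 0.22 on the log2 scale with age (adjusted p = 0.0127) and had a log2 fold change of -0.16 (adjusted p = 0.309) in SOD1-G93A mice. Hepcidin itself (Hamp) had at most 1 count in any library.

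Of 20 genes of heme synthesis, transport and breakdown, 18 were tested. With age 5 were higher and none was lower, and in SOD1-G93A mice 3 were higher and 4 were lower. Hmox1, which breaks down heme and frees its iron, rose by a log2 fold change of 1.04 (SE 0.12, adjusted p = 6.1e-07) with age and 3.23 (SE 0.39, adjusted p = 7.0e-04) in SOD1-G93A mice. Chosen after its values were seen, Hmox2, the constitutive heme oxygenase, had a log2 fold change of -0.01 with age (adjusted p = 0.893) and -0.31 in SOD1-G93A mice (adjusted p = 0.0339). Blvrb, a biliverdin reductase, rose with age by 0.63 (SE 0.11) and had a log2 fold change of 0.36 (adjusted p = 0.166) in SOD1-G93A mice. Alas1, the first enzyme of heme synthesis, rose by 0.21 on the log2 scale with age. Abcb6, a porphyrin transporter, rose by 0.21 with age and fell by 0.57 in SOD1-G93A mice on the log2 scale. In SOD1-G93A mice the heme synthesis enzymes Ppox and Cpox moved apart, with log2 fold changes of 0.53 and -0.46.

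Mitochondrial iron and iron-sulfur assembly held 20 genes, all tested. With age 1 was higher (Iscu, the assembly scaffold, log2 fold change 0.22) and 1 was lower. In SOD1-G93A mice 1 was higher (the cochaperone Hscb, 0.89) and 3 were lower (Glrx5, -0.38, Isca1, -0.36, and Iscu, -0.33).

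Zinc transport and metal-responsive transcription held 23 genes, of which 21 were tested. With age 3 were higher and 4 were lower, and in SOD1-G93A mice 4 were higher and 2 were lower. The zinc importer Slc39a1 rose by a log2 fold change of 0.46 (SE 0.06) with age and 1.47 (SE 0.15) in SOD1-G93A mice. Slc39a11 rose by 0.49 and 0.57, Slc30a7 rose by 0.39 in SOD1-G93A mice, and Slc39a10 fell by 0.23 with age, all on the log2 scale. Slc39a10 also passed the test as lower in SOD1-G93A mice, with a log2 fold change of -0.26. Mtf1, chosen after its values were seen because it binds the element in the promoters above, had a log2 fold change of -0.15 with age (adjusted p = 0.0358) and -0.05 in SOD1-G93A mice (adjusted p = 0.735).

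Copper handling held 12 genes, all tested. With age 1 was higher (Sod1, log2 fold change 0.19), and in SOD1-G93A mice 4 were higher. These were the copper importer Slc31a1 (0.39) and its relative Slc31a2 (0.75), the copper-exporting ATPase Atp7b (0.96) and Sod1 (0.95). SOD1-G93A mice carry human SOD1 copies, and whether their reads were counted on mouse Sod1 was not tested.

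**Figure D5:**
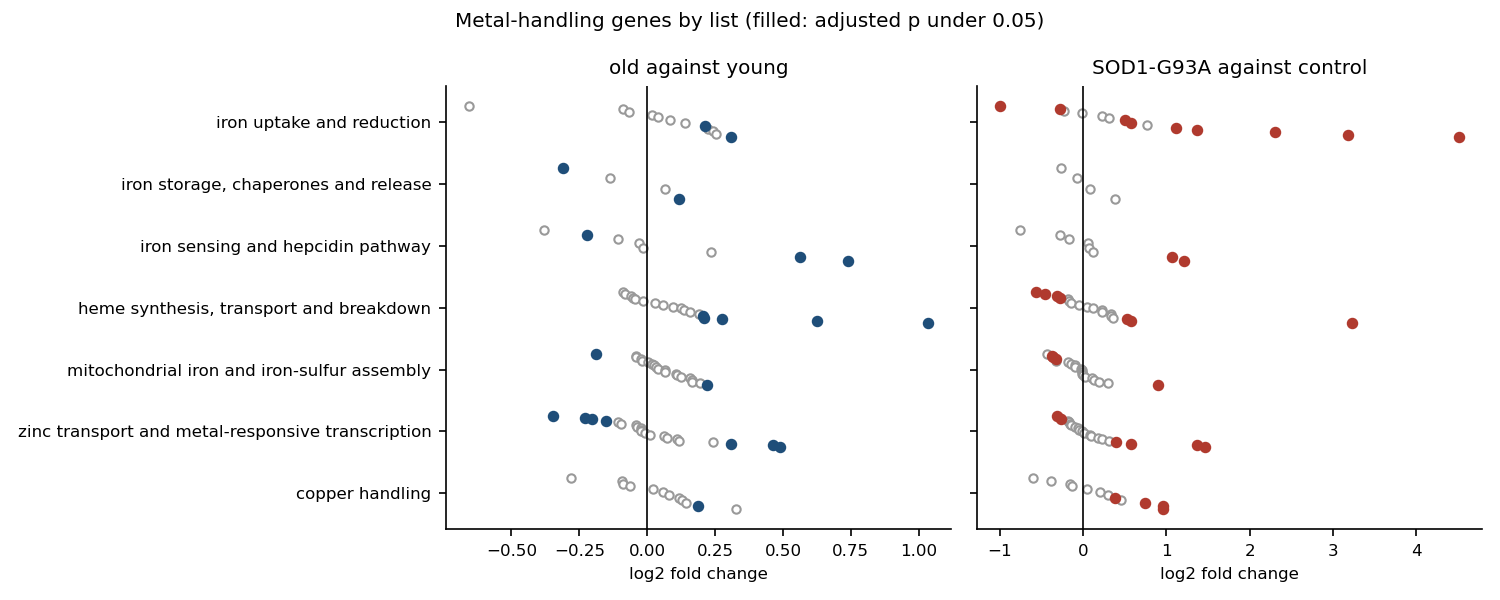
Log2 fold change of each tested gene in 7 metal-handling lists, for old against young on the left and SOD1-G93A against control on the right, whose axes differ in scale. Points are genes, filled where the adjusted p is under 0.05. Filled points lie on both sides of 0 in each panel (14 higher and 7 lower with age, 19 and 11 in SOD1-G93A mice, where a gene in 2 lists is drawn in both).

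Correlations of log2 CPM over the 8 libraries of a group were computed for 3 pairs in young and in old mice, 6 in all. Fth1 and Ftl1 correlated in young mice with Pearson's r = 0.83 (exact permutation p = 0.0103, adjusted p = 0.0619) and Spearman's rho = 0.905 (exact permutation p = 0.00456, adjusted p = 0.0274). Without young 1 and young 4, the 2 libraries farthest from the median of Fth1, r was 0.598. In old mice r was -0.315 (exact permutation p = 0.538) and rho was -0.238 (exact permutation p = 0.582), and r was -0.298 without old 2 and old 3, the farthest there, and -0.0901 without old 6. For Mt1 and Mt2, r was 0.594 in young mice (exact permutation p = 0.122, rho 0.548, permutation p = 0.171) and 0.538 in old mice (exact permutation p = 0.172, rho 0.405, permutation p = 0.327), all with adjusted p of 0.258 or more. Without the 2 libraries farthest from the median of Mt1, r was -0.244 (young 4 and young 5 left out) and -0.603 (old 5 and old 8 left out). Leaving out libraries by their distance in Mt1 narrows its range, so these values do not show whether the relation holds. Why r turned negative was not tested. Without old 6 alone, r in old mice was 0.885. For Mt2 and Mt3, r was 0.574 in young mice (exact permutation p = 0.135, rho 0.667, permutation p = 0.0831) and -0.367 in old mice (exact permutation p = 0.365, rho -0.429, permutation p = 0.299), with adjusted p of 0.249 or more. Without the 2 libraries farthest from the median of Mt2, r was 0.388 (young 5 and young 7 left out) and -0.856 (old 5 and old 8 left out), and without old 6 alone r in old mice was -0.11.

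The genes whose pattern was most like a member were sought by Pearson's r of log2 CPM after subtracting each age group's mean, over the 16 aging libraries and 13646 other genes. These values are descriptive and carry no p. For Mt1 the 3 most alike were Pwwp2a (0.873), Ncoa6 (0.846) and Ppp1r1b (0.834). For Mt2 they were Dynlt1a (0.885), Klf15 (0.827) and Prodh (0.816). For Slc11a1 they were Agtrap (0.855), Acot2 (0.837) and Bcl2a1b (0.804), and for Trf Psmd2 (0.92), Drg1 (0.914) and Qdpr (0.907). Without old 6 each of these r was at least 0.779. Of the 12, Agtrap and Bcl2a1b were higher in old mice, with log2 fold changes of 0.37 and 3.28, and the others did not pass the test.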

How the data were processed

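Whole spinal cord RNA of 22 mice was sequenced, 1 library per mouse. Alignment by the authors used STAR against mm10, and RSEM with Ensembl genes gave the expression values (SAMtools 1.3 is named in the submitters' processing notes). The authors deposited RSEM expected counts, not normalized, which are whole numbers in the table and were used unchanged. The authors also deposited log2 values of FPKM plus 1, from which FPKM were recovered. Columns give each library's group and no replicate number, and no column was left unused.

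Members were found by symbol in GENCODE M21, which holds 21842 of the 21995 identifiers. In each comparison, genes were kept by filterByExpr (minimum count 10, minimum total 15), scaled by TMM and tested with edgeR 4.0.16 (quasi-likelihood, R 4.3.3), adjusting p by Benjamini-Hochberg for every tested gene at a threshold of 0.05. Fold changes beyond 1 on the log2 scale, the study's second threshold, were counted separately. CPM use TMM library sizes, and principal components used log2 CPM with a prior count of 2. In 62 pairs of libraries of a group, the chi-square per degree of freedom was at least 2.52, so none was a duplicate. Ratios and correlations were tested by exact permutation in Python 3.11.15 (NumPy 2.4.6). Correlations had been planned with resampled pairings, and all 40320 pairings were used in their place. The procedure was tested on simulated data.

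The genes named in the text are the 10 members and up to 4 genes per metal-handling or glucocorticoid list and comparison with the smallest adjusted p among those called. Also named are the gene of each marker list with the highest mean CPM over all libraries, groups that changed included, and the 3 genes most like Mt1, Mt2, Slc11a1 and Trf. The called astrocyte markers are given too, as are genes that overlap or copy a member. Mt4, Hamp and Ly6g are named for their absent or nearly absent counts. Others are marked. Some genes that meet these rules are not named. The members and lists were chosen with earlier results of these data known. Alternatives were DESeq2 1.42.0, RLE factors, no filter, at least 10 counts in every library, one fit of all libraries, limma 3.58.1 on log2(FPKM + 1), and each library left out. The litter of each mouse and which libraries were made together are not given in the sources used here. The spread between mice on which the p-values rest may therefore include litter, preparation and, in the ALS groups, sex.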

Additional observations from a re-analysis of the deposited data

Results flagged for a closer look

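In 26 groups of 8 libraries (the 10 members and the 3 ratios, in young and in old mice), the highest and the lowest value were compared with the rest, and 2 stood far from the others. Both belong to old 6 and share Ftl1. Ftl1 was at 183.7 CPM in old 6, and its gap to the next old library was 0.595 of the range of the group. The ratio of Fth1 to Ftl1 was 47.74 in the same library, with a gap of 0.604 of the range. Chance alone gives about 1 such value in 20 groups. The library also had the lowest summed level of microglia and macrophage markers among old mice (595.8 CPM) and the highest of neuron markers (9564 CPM). Their part in its Ftl1 level was not tested.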

How the results depend on the processing

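Of 607 values recomputed under an alternative, 572 kept their direction and their side of the threshold, or stayed within 1.5 times for a count. No paired analysis was possible because the table columns carry no replicate numbers. RLE factors moved the median log2 fold change of all genes from -0.003 to -0.004 with age and from 0.003 to -0.002 in SOD1-G93A mice. The count of members called stayed at 8 with age in every leave-out and ranged from 7 to 9 in SOD1-G93A mice. Members with a log2 fold change beyond 1 with age ranged from 1 to 2 over the leave-outs. With limma on log2(FPKM + 1), 2 metal-handling genes in place of 7 were lower in old mice and 4 in place of 11 were lower in SOD1-G93A mice. Leaving out ALS libraries gave from 1 to 18 of the latter, while the share of all genes called lower in those fits ranged from 4.92% to 21.7%.

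Signs turned only for differences that did not pass a test. The log2 ratio of Mt2 to Mt1 with age was 0.0082 from counts and 0.0461 without old 6, and in SOD1-G93A mice it ranged from -0.0048 to 0.1275 over the leave-outs. The interaction of Slc40a1 was -0.0076 without a filter and ranged from -0.0886 to 0.0810 over the leave-outs, and that of Fth1 ranged from -0.209 to 0.0237. On log2(FPKM + 1), Pearson's r of Fth1 with Ftl1 was 0.8598 in young mice (exact permutation test, adjusted p = 0.024), which passed, and 0.1012 in old mice (exact permutation test, adjusted p = 0.878). The cause of these shifts was not tested. With 3 mice a group and 11 to 41 counts of Slc11a1 in young libraries, depth and number limit the precision of the ALS ratios and of that gene.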

Other observations

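Metallothionein genes respond to glucocorticoids, and a list of 12 glucocorticoid-responsive genes was examined beside them. With age 1 was higher (8.33%, beside 13.5% of all genes tested) and 2 were lower (16.7%, beside 12.9%), with a median log2 fold change of 0.091. Fkbp5, a receptor cochaperone, rose by a log2 fold change of 0.22, while Tsc22d3, the most abundant of the list over all libraries, and Errfi1 fell by 0.24 and 0.18 on the log2 scale. In SOD1-G93A mice 2 were higher (16.7%, beside 18.4% of all genes tested) and none was lower (beside 15.5%), and the median was 0.704. The higher genes were the clock gene Per1, by 0.61, and the metabolic kinase Pdk4, by 1.25 on the log2 scale. The summed level of the list stood at 498.3, 824.1 and 949.6 CPM in control mice and at 582.8, 990.8 and 2082 CPM in SOD1-G93A mice, which overlap.

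Of 6 oligodendrocyte precursor markers, 4 were lower in old mice and 2 were higher in SOD1-G93A mice, and the most abundant over all libraries, Olig1, fell by 0.24 on the log2 scale with age. Of 10 endothelial and pericyte markers, 2 were lower with age, and 2 were higher and 1 was lower in SOD1-G93A mice, the lower being Rgs5 (log2 fold change -0.50). Of 8 meningeal markers, 6 were tested with age and 1 was lower (Ptgds, -0.28), and 7 were tested in SOD1-G93A mice and 1 was higher. Of 8 ependymal and choroid plexus markers, 5 were tested in each comparison, of which 1 was higher with age and 3 were higher in SOD1-G93A mice. There the most abundant, Foxj1, had a log2 fold change of 0.37, and Rarres2 and Ccdc153, chosen after their values were seen, had larger ones of 2.26 and 1.88. Ccdc153 was low in control mice, at a mean of 0.87 CPM (SD 0.60). The 2 tested markers that were not called there had negative log2 fold changes, the lowest at -0.869. Of 6 Schwann cell and root markers, 3 were tested with age, of which 1 was higher and 1 was lower (Mal, -0.52), and 4 were tested in SOD1-G93A mice, of which 1 was higher. Skeletal muscle markers summed to at most 4.57 CPM in any library. None of the 5 had enough counts to be tested with age, and in SOD1-G93A mice only the most abundant, Mylpf, was tested (log2 fold change -0.03, adjusted p = 0.9635).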
